A study of Drosophila melanogaster with 12 samples.

Results

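The genes described here encode proteins that Drosophila secretes in bulk into the hemolymph as stores of amino acids, yolk and lipid. The list was chosen by gene name and function, with the signals of these arrays known, and holds 10 genes: the serum storage proteins Lsp1alpha, Lsp1beta, Lsp1gamma and Lsp2, the fat body protein Fbp1, the yolk proteins Yp1, Yp2 and Yp3, and the lipoprotein genes apolpp and Apoltp. In all, 9 of the 10 had a probe set, 1 each, out of 11984 genes with a probe set of their own, and Lsp1gamma was not analysed here. Earlier results of these data already gave Lsp1alpha, Lsp1beta and Lsp2 as changed in the nub1 carcass, and Yp3 and Apoltp as changed in the nub1 gut. Their values in those comparisons, and in the difference between the tissues, are therefore a description and carry no test.

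Larval serum proteins are hexamers that the larval fat body releases before metamorphosis and takes up again through the receptor Fbp1, to be used up as the adult forms. Yolk proteins are made by the fat body and by the follicle cells of the ovary of adult females, under the control of the sex determination pathway and of ecdysone and juvenile hormone, and enter the oocyte through the receptor Yolkless. The product of apolpp, apolipophorin, is the core of lipophorin, the carrier of fat in the hemolymph, and the particle encoded by Apoltp moves lipid from the midgut onto it. The fat body is the main source of all of these proteins.

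Affymetrix Drosophila Genome 2.0 arrays had been hybridized with RNA from dissected guts, or from carcasses, the remainder once head and gut are taken off, of untreated adult females aged 7 to 12 days, to compare flies with and without the nub1 allele of the POU factor gene nubbin. The 4 groups, wt carcass, nub1 carcass, wt gut and nub1 gut, had 3 arrays each, and within a group each array was made from a separate pool of 20 flies. Whether guts and carcasses came from the same pools is not stated, and the fit treated all arrays as independent. The mutant strain was nub1 b1 pr1, so that it is mutant at black and purple too, and the labels of the wt samples name OregonR together with w1118, without saying which pool was which. The nub1 allele, the linked markers and the strain background cannot be told apart in this design. Of the genes listed, Lsp1beta and Apoltp lie on the same chromosome arm as nubbin, 2L.

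The signals are MAS5 intensities on a linear scale, and on all 12 arrays the trimmed mean is 100 and the median lies between 7.81 and 14.9. A signal under 10 was taken as too dim to be measured. Transcripts of 9 midgut enzyme markers had a mean log2(signal + 10) of 12.1 to 12.9 in gut, of 6.31 to 6.55 in wt carcass and of 7.06 to 8.24 in nub1 carcass. There 5 of the 9 were called higher, beside 2.77% of all probe sets tested, and nothing is read from that share. Of the 5, Jon65Ai and LManIII were under 10 on all wt carcass arrays. They were tested through nub1 carcass alone, so their values are a description. Eggshell transcripts were uneven between the gut arrays, with a summed signal over 13 genes of 172, 11968 and 20529 in wt replicates 1, 2 and 3 and of 125, 15960.2 and 1109 in nub1, against 38912 to 46441 on the carcass arrays. The ejaculatory duct transcript Anp had a signal of 1056 in nub1 gut replicate 1, 1692 in replicate 3 and 138 in nub1 carcass replicate 2, and of at most 18.8 on the other 9 arrays. Dup99B, also of this male duct, had 444, 781 and 86.0 on those arrays and at most 9.77 on the others. Ebp had 123 in nub1 gut replicate 3 and at most 10.2 elsewhere. EbpIII lay between 1059 and 5568 on all 12 arrays, and the sex peptide gene SP stayed at 8.54 or below. The authors list Anp as an antimicrobial peptide gene with a higher signal in nub1 gut.

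**Figure D1:**
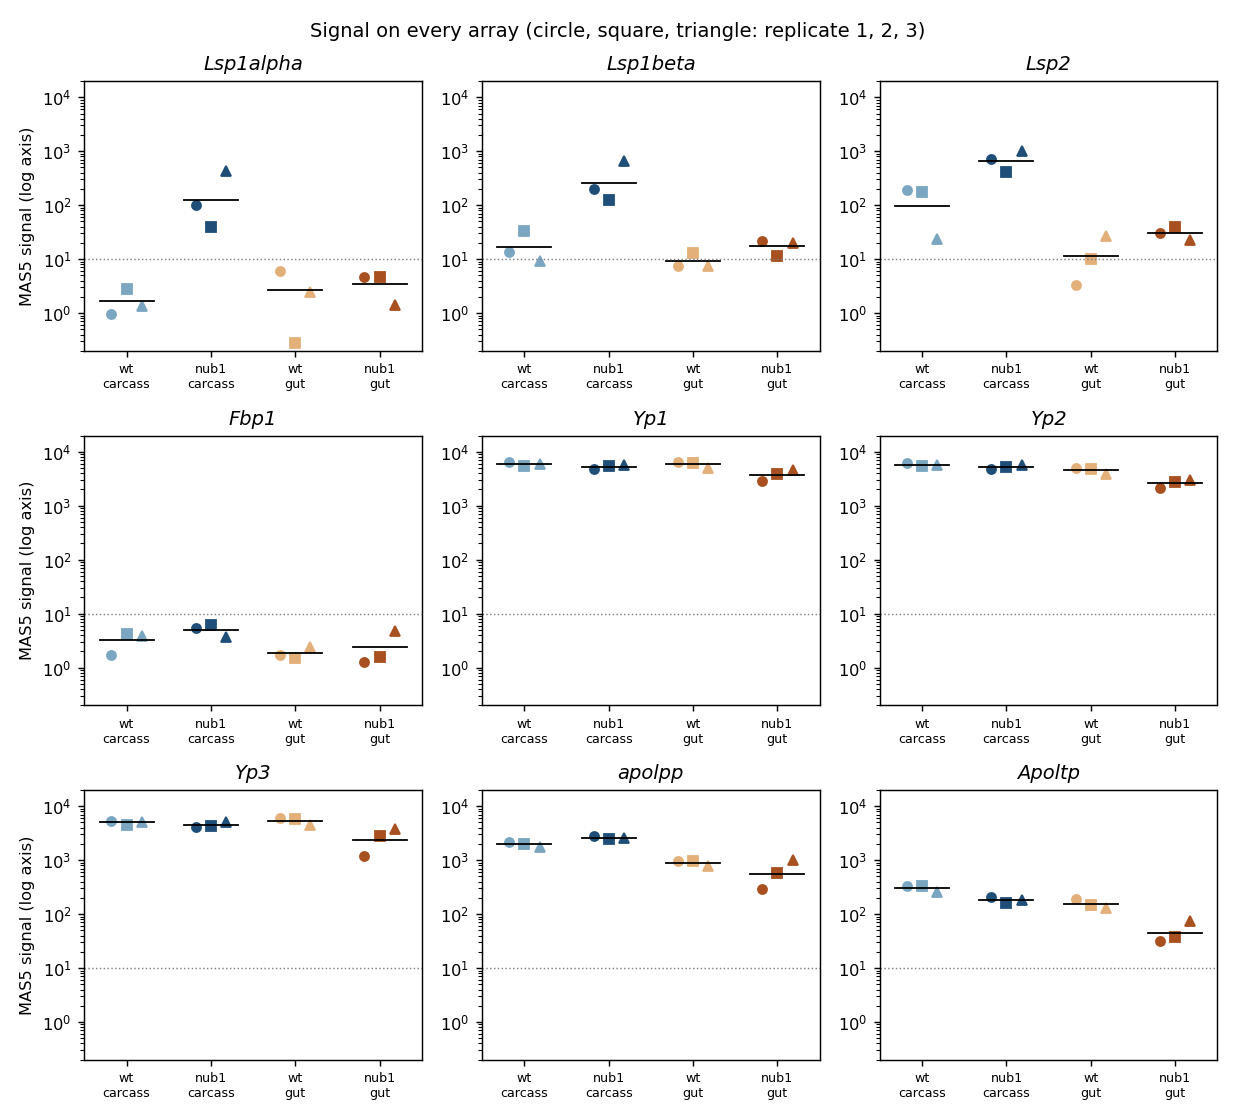
MAS5 signal (log axis) of the 9 genes on each of the 12 arrays, by group, with circles, squares and triangles for replicates 1, 2 and 3. Black lines are group means taken on log2(signal + 10) and the dotted line is a signal of 10. The serum storage genes stand out in nub1 carcass, the yolk protein genes are bright in all 4 groups, and Fbp1 stays under 10 on every array.

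Serum storage transcripts were scarce in wt flies of this age and higher in the nub1 carcass. The signal of Lsp1alpha, which encodes a subunit of larval serum protein 1, was 0.962, 2.83 and 1.38 in the 3 wt carcass pools and 101, 40.0 and 429.8 in the 3 nub1 carcass pools. The wt arrays are thus all under 10 and the nub1 arrays all above it. Taken against 10, the nub1 signal was at least 12.0-fold higher. The fitted log2 fold change on log2(signal + 10), which depends on the pseudocount, was 3.52 (SE 0.56 from limma).

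Lsp1beta, which encodes a related subunit of the same hexamer, had a signal of 13.3, 33.6 and 9.07 in wt carcass and of 198, 125 and 668 in nub1 carcass. Again the lowest nub1 pool was above the highest wt pool, and the log2 fold change was 3.31 (SE 0.49). Both genes passed the filter on low signals through the nub1 carcass alone.

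The signal of Lsp2, a separate larval hexamerin, was 188, 177 and 23.3 in wt carcass and 728, 414 and 1009 in nub1 carcass (717 ± 298 against 129 ± 92.0, SD, n = 3). It was the one storage protein transcript with a clear signal in wt carcass, in 2 of the 3 pools. The log2 fold change was 2.67 (SE 0.61), with no overlap between the genotypes. Leaving out wt carcass replicate 3, the dim pool, gave 1.83.

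The order of the mutant pools was shared by these 3 genes, with replicate 3 the highest and replicate 2 the lowest. Leaving out nub1 carcass replicate 3 lowered the log2 fold change to 2.67 for Lsp1alpha and 2.64 for Lsp1beta, and leaving out replicate 2 raised that of Lsp1alpha to 4.24. Replicate 2 is the carcass pool with Anp and Dup99B transcripts. Other marker lists also differed between the carcass groups. Besides the 5 midgut enzyme markers called higher in nub1 carcass, 4 were not called. Their log2 fold changes were 0.10 for alphaTry, −0.52 for betaTry, 1.48 for Jon99Fi and 0.64 for LManV. LManV passed the filter on low signals through nub1 carcass alone. The summed signal of the 9 overlapped, at 3101 to 4502 in wt and 2994 to 5421 in nub1, whereas their mean log2(signal + 10) did not. The 5 muscle markers had a mean log2(signal + 10) of 7.98 to 8.23 in wt carcass and of 8.26 to 8.71 in nub1 carcass, and 1 of them, fln, rose by a log2 fold change of 1.27 (adjusted p = 1.41e-04 from limma). The part of these shifts in the storage gene signals was not tested. In RNA from whole carcasses, more cells of a type and more RNA per cell cannot be told apart.

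Fbp1, the receptor for the larval serum proteins, was not detected beside them. Its signal lay between 1.27 and 6.10 over the 12 arrays and it entered no test. Fbp2, another larval fat body gene, had mean signals of 1.02 in wt carcass and 4.26 in nub1 carcass, likewise too dim to test. The prophenoloxidases are enzymes of melanization that share ancestry with the hexamerins. PPO1, PPO2 and PPO3 were tested in carcass and 0 of 3 were called by limma, with 2 at an unadjusted p under 0.05, and the methods' t-test called 0. Their log2 fold changes were 0.30 for PPO1, 0.52 for PPO2 and −0.68 for PPO3. PPO3 passed the filter on low signals through wt carcass alone, so its value is a description.

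Among the listed genes tested in carcass, 3 of 8 were called (an adjusted p under 0.05 with a change of 2-fold or more), all 3 of them higher in nub1 and all 3 serum storage genes, beside 4.71% of all 8855 probe sets tested, 2.77% of them higher. Nothing is read from that share, as these 3 genes were known beforehand. The methods' t-test on the linear signals called 1 of the 8 before adjustment, Lsp2, and 0 after it.

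In gut the same storage genes stayed low. Lsp1alpha was under 10 on all 6 gut arrays, at 4.69, 4.71 and 1.41 in nub1 gut, and was not tested there. Lsp1beta had a signal of 7.38, 13.2 and 7.50 in wt gut and of 21.3, 11.2 and 20.2 in nub1 gut. The groups overlapped, and the log2 fold change, 0.50 (SE 0.48), was not called. Lsp1beta passed the filter on low signals through nub1 gut alone, so this value is a description.

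Lsp2 had a signal of 3.31, 10.2 and 26.7 in wt gut and of 30.1, 40.0 and 22.3 in nub1 gut, which also overlapped (log2 fold change 0.91, SE 0.60, not called). It too passed the filter through nub1 gut alone, and its value is a description. The difference of the nub1 effect, gut minus carcass, was −3.43 for Lsp1alpha (SE 0.80), −2.81 for Lsp1beta (SE 0.69) and −1.77 for Lsp2 (SE 0.86) on the log2 scale. Without nub1 carcass replicate 3 they were −2.58 for Lsp1alpha and −2.14 for Lsp1beta, and without wt carcass replicate 3 that of Lsp2 was −0.92. These differences are descriptions, since the carcass values are part of them.

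The yolk protein genes were among the brightest transcripts on the arrays. On the 6 carcass arrays, Yp1, Yp2 and Yp3 ranked between 9 and 72 of 18769 probe sets, and on the 6 gut arrays between 67 and 580. The highest signal on any array lay between 5867 and 11173, so these probe sets are near the top of the measured range. Whether the response of the arrays is still linear there was not tested.

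In carcass, which holds the ovaries and most of the fat body, the yolk protein transcripts did not differ detectably with genotype. Yp1 had a signal of 6401, 5533 and 5833 in wt and of 4862, 5381 and 5615 in nub1, which overlap (log2 fold change −0.16, SE 0.15, adjusted p = 0.591 from limma). The 95% interval of that change ran from −0.50 to 0.17. Yp2 overlapped as well, at 6213, 5438 and 5578 in wt and 4879, 5322 and 5592 in nub1.

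For Yp2 the log2 fold change was −0.13 (SE 0.13, adjusted p = 0.635 from limma, 95% interval −0.41 to 0.16), and under quantile normalization it was 0.00. Yp3, the most diverged of the 3 yolk genes, had a signal of 5357, 4465 and 5205 in wt and of 4142, 4355 and 5113 in nub1 (log2 fold change −0.14, SE 0.31, adjusted p = 0.848 from limma, 95% interval −0.82 to 0.53). The fit shares 1 spread over the 4 groups, so this interval is not the carcass spread alone. The SD of Yp3 was 49.3% of the mean in nub1 gut, against 9.53% in wt carcass and 11.2% in nub1 carcass. Among the eggshell markers in carcass, 0 of 13 were called by limma or by the methods' t-test with the 2-fold minimum, and 0 had an unadjusted p under 0.05 in limma. The uneven gut arrays entered the shared spread here too, with SEs of 0.49 (psd) to 1.92 (Cp36). Modest carcass changes could therefore not be called by limma, and nothing is read from this count. The signal of psd was 386, 300 and 335 in wt carcass and 159, 176 and 212 in nub1 carcass, without overlap (log2 fold change −0.87).

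In the gut samples all 3 yolk genes were lower in nub1. The signal of Yp1 was 6579.5, 6303 and 5046 in wt gut and 2910.0, 3932 and 4649.5 in nub1 gut. Each nub1 pool was below each wt pool, and the log2 fold change, −0.66 (SE 0.15, adjusted p = 0.00625 in limma), passed the p threshold but not the 2-fold minimum.

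Yp2, the neighbour of Yp1 on the X chromosome, had a signal of 5104, 4806 and 3943 in wt gut and of 2142, 2742 and 2989.8 in nub1 gut. The groups did not overlap here either, and the log2 fold change was −0.82 (SE 0.13, adjusted p = 4.95e-04 from limma), again under the 2-fold minimum.

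Yp3 had a signal of 5966, 5753 and 4540.3 in wt gut and of 1213, 2824 and 3736 in nub1 gut. It had the widest spread of the 3 in nub1 gut, a mean of 2591 ± 1278 (SD, n = 3), and its log2 fold change was −1.20 (SE 0.31) with no overlap. That value turned on nub1 gut replicate 1, without which it was −0.73, under the 2-fold minimum.

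The difference of the nub1 effect on Yp2, gut minus carcass, was −0.69 on the log2 scale (SE 0.18, adjusted p = 0.0279 from limma), under the 2-fold minimum. For Yp1 the difference was −0.49 (SE 0.22, adjusted p = 0.161 from limma), past the threshold in neither respect, and for Yp3 it was −1.05 (SE 0.43), given as a description.

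**Figure D2:**
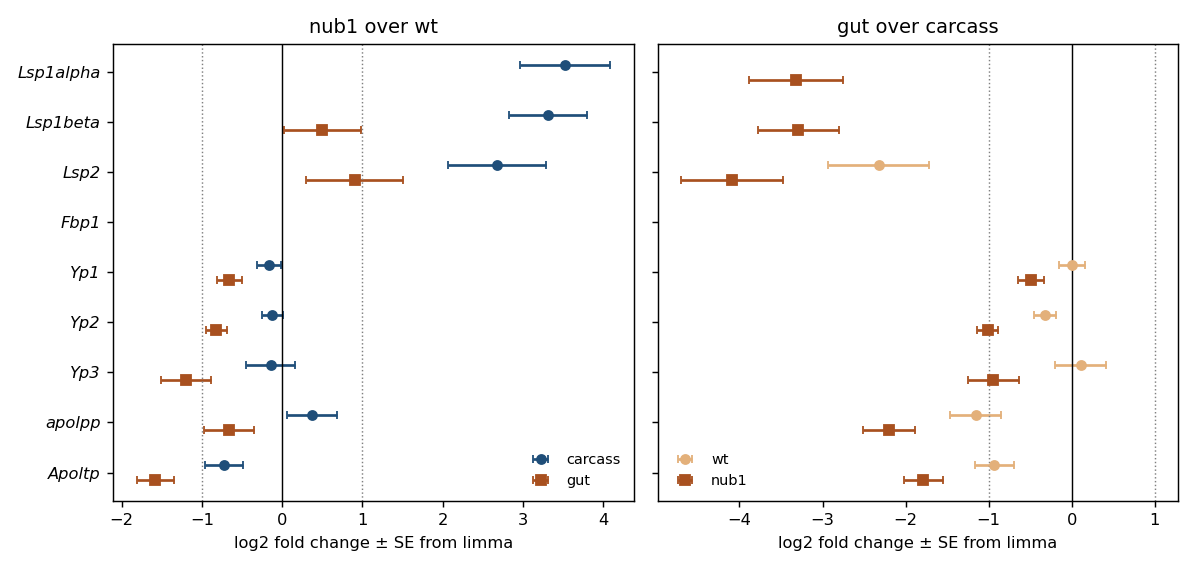
log2 fold change of each gene with its SE from limma, for nub1 over wt in carcass and gut (left) and for gut over carcass in wt and nub1 (right). Dotted lines mark a 2-fold change, and genes too dim to be tested have no point. The serum storage genes lie to the right beyond 2-fold in carcass. In gut, Lsp1beta (0.50) and Lsp2 (0.91) also lie to the right, under 2-fold and not called. The yolk and lipoprotein genes lie further to the left in gut than in carcass.

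The lipoprotein genes both had negative fold changes in gut, and fold changes of opposite sign in carcass that missed the p threshold and the 2-fold minimum. The signal of apolpp was 2186, 2036 and 1791 in wt carcass and 2863, 2420.0 and 2531 in nub1 carcass. The lowest nub1 pool was above the highest wt pool, though the log2 fold change was 0.38 (SE 0.31, adjusted p = 0.523 from limma). That SE comes from 1 spread shared by the 4 groups. The SD was 56.5% of the mean in nub1 gut, against 9.97% in wt carcass and 8.86% in nub1 carcass. In gut the signal was 949.5, 953 and 781 in wt and 295, 588 and 1001 in nub1.

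The signal of nub1 gut replicate 3 was above all the wt gut pools, and the log2 fold change was −0.66 (SE 0.31, adjusted p = 0.119 from limma). Without that pool it was −1.08 and passed both thresholds, and without nub1 gut replicate 1 it was −0.21. The difference of the nub1 effect between gut and carcass was −1.04 (SE 0.44, adjusted p = 0.143 from limma), which also passed without nub1 gut replicate 3, at −1.45.

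Apoltp was lower in nub1 in both tissues. In carcass its signal was 329.7, 334 and 253 in wt and 204, 158 and 181 in nub1, without overlap. The log2 fold change was −0.72 (SE 0.23, adjusted p = 0.0571 from limma), which missed both the p threshold and the 2-fold minimum.

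In gut the signal of Apoltp was 190.3, 149.6 and 129 in wt and 31.6, 38.2 and 73.4 in nub1. The brightest nub1 pool was below the dimmest wt pool, and the log2 fold change was −1.58 (SE 0.23), between −1.88 and −1.38 with each array left out in turn. The difference between the tissues was −0.86 (SE 0.33), given as a description.

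In gut 2 of the 7 listed genes tested were called, both lower in nub1 (Yp3 and Apoltp), beside 9.28% of all 9782 probe sets tested, 6.13% of them lower. Both were known beforehand, and nothing is read from the share. Wt and nub1 arrays were fully apart for 4 of the 7 (Yp1, Yp2, Yp3 and Apoltp), as for 40.8% of all probe sets, and in carcass for 5 of the 8, as for 45% of all. The median log2 fold change of the listed genes tested was −0.66 in gut and 0.13 in carcass, and over all probe sets it was −0.06 and −0.02. No listed gene was called higher in gut by limma, and 0 had an unadjusted p under 0.05 in that direction. For the difference between the tissues, 2 of 8 were called, Lsp1alpha and Lsp1beta, both lower, beside 6.56% of 10199 probe sets, 4.7% of them lower, and nothing is read from that share either.

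The 5 yolk and lipoprotein genes had the same order over the nub1 gut pools, lowest in replicate 1 and highest in replicate 3, over a range of 1.40-fold for Yp2 and 3.39-fold for apolpp. In the wt gut they spanned 1.22-fold to 1.48-fold, with replicate 3 the dimmest for all 5. Both nub1 gut replicates 1 and 3, at the ends of the mutant range, carried the duct transcripts Anp and Dup99B. Eggshell transcripts had another order, highest in nub1 gut replicate 2 and in wt gut replicate 3. Their 13 genes had 9 signals under 10 in nub1 gut replicate 1 and 6 in wt gut replicate 1, the array on which all 3 yolk genes of the wt gut were highest. In wt gut the pool with the least eggshell RNA had the highest yolk signals, whereas in nub1 gut it had the lowest. The part of ovary RNA in the yolk signals was not tested.

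Fat body markers other than the listed genes moved in both directions. Of 10 measured in gut, 3 were called higher in nub1 and 3 lower, beside 9.28% of all probe sets called either way. Nothing is read from that count, as the list was chosen with earlier results known. The largest rises were those of fit, which encodes a female-specific fat body peptide, with a log2 fold change of 1.73, and NLaz, a lipocalin, with 1.23. The largest falls were those of Lsd-1, a lipid droplet protein, with −2.93, and AkhR, the receptor of the adipokinetic hormone, with −1.88. For fit, NLaz and Lsd-1 the adjusted p ran from 7.35e-08 to 1.16e-04 (limma). AkhR passed the filter on low signals through wt gut alone, so its value is a description. The summed signal of the 10 was 4574 to 5399 in wt gut and 5292 to 6025 in nub1 gut, whereas their mean log2(signal + 10) was 8.40 to 8.51 in wt gut and 8.02 to 8.24 in nub1 gut. That mean had the same order over the nub1 gut pools as the yolk and lipoprotein genes. The part of fat body tissue left on the guts in the lower yolk and lipoprotein signals was not tested.

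In carcass 4 of the 10 fat body markers were called, beside 4.71% of all probe sets tested, and nothing is read from that count either. Tsf1 rose by a log2 fold change of 1.60 and fit by 1.93, whereas AkhR fell by 2.42 and Lsd-1 fell by 1.00 (adjusted p from 1.35e-05 to 0.00159, limma). The mean log2(signal + 10) over the list overlapped, at 8.84 to 9.12 in wt and 8.82 to 8.94 in nub1, whereas the summed signal did not, at 6150 to 7192 in wt and 8431 to 9471 in nub1. The part of this shift in the storage gene signals was not tested.

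**Figure D3:**
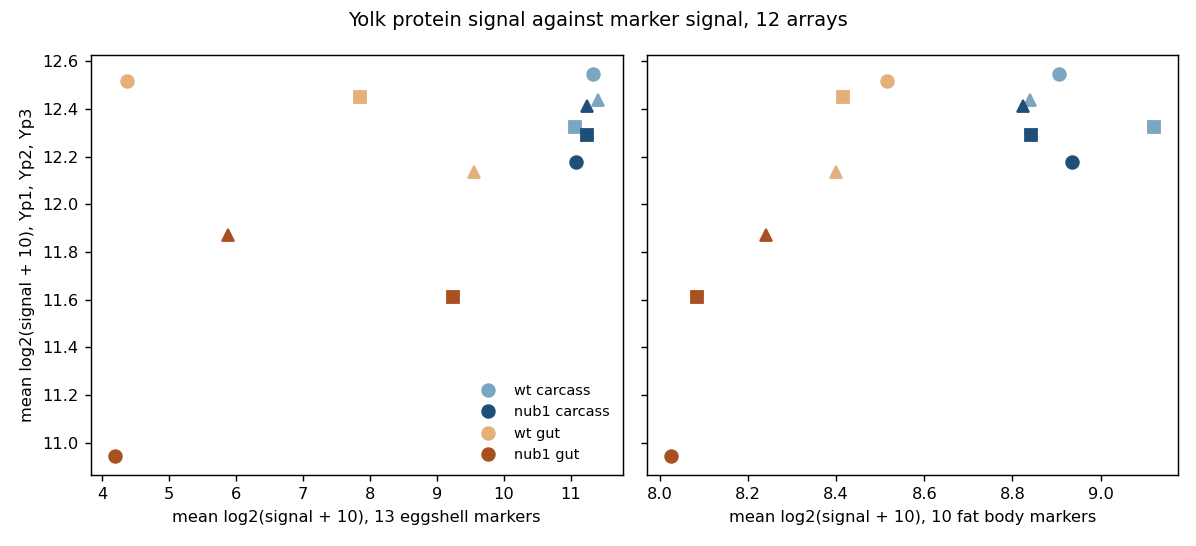
Mean log2(signal + 10) of Yp1, Yp2 and Yp3 on each of the 12 arrays, against that of 13 eggshell markers (left) and of 10 fat body markers (right), with circles, squares and triangles for replicates 1, 2 and 3. The wt gut array with almost the least eggshell signal, at 4.36, has a yolk mean of 12.5, in the carcass range. The yolk means of the nub1 gut arrays lie between 10.9 and 11.9. The lowest of these belongs to the array with the least eggshell signal, at 4.19.

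Set against carcass, the signals of Yp1 and Yp3 in the gut samples of wt flies were at the carcass level, on arrays scaled to the same trimmed mean. The mean wt gut signal was 101% of the mean wt carcass signal for Yp1, 80.4% for Yp2 and 108% for Yp3. For Yp1 the log2 difference, gut over carcass, was 0.01 (SE 0.15, adjusted p = 0.971 from limma) and for Yp3 0.11 (SE 0.31, adjusted p = 0.751), and under quantile normalization they turned to −0.45 and −0.36. For Yp2 it was −0.32 (SE 0.13, adjusted p = 0.0376), under the 2-fold minimum.

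The eggshell and germ line markers had smaller shares in the same gut samples, and the fat body and muscle markers were spread on both sides of the yolk genes. The median wt gut signal in percent of carcass was 22.9% over 13 eggshell markers (1.75% to 38.5%), 21.7% over 7 germ line markers (13.2% to 42.1%) and 58.4% over 10 fat body markers (11.2% to 233%), of which NLaz (233%), Lsd-1 (213%) and bmm (181%) were above the yolk genes. Among the 5 muscle markers, TpnC4, Act88F and fln, of the flight and jump muscles, were called lower in gut, with shares of 0.20% to 3.40%. The other 2 were Mlc2 at 95.4% and up, a troponin T gene, at 165% (log2 difference 0.67, adjusted p = 0.00664 from limma, under 2-fold).

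In nub1 flies the gut share was lower for each of these genes, at 72.5% for Yp1, 49.9% for Yp2 and 57.1% for Yp3. The log2 difference between nub1 gut and nub1 carcass was −0.49 for Yp1 (SE 0.15, adjusted p = 0.0116 from limma), under the 2-fold minimum, and −1.01 for Yp2 (SE 0.13, adjusted p = 2.23e-05 from limma). The call for Yp2 sits at the minimum and was lost, on fold alone, without nub1 gut replicate 1 (−0.87) or nub1 carcass replicate 3 (−0.97). Yp3 stood at −0.95 (SE 0.31), a description because it shares the nub1 gut arrays, and passed 2-fold when nub1 gut replicate 2 (−1.08), nub1 gut replicate 3 (−1.28) or nub1 carcass replicate 1 (−1.01) was left out. Over the fat body, eggshell and germ line markers the median share in nub1 was 52.5%, 10.6% and 30.4%.

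Both lipoprotein genes had lower signals in gut than in carcass. The wt gut held 44.6% of the carcass signal of apolpp, a log2 difference of −1.16 (SE 0.31, adjusted p = 0.00445 from limma), and 51.1% of that of Apoltp, −0.93 (SE 0.23, adjusted p = 0.00282 from limma), just under 2-fold. The latter passed 2-fold without wt gut replicate 1 (−1.07) or wt carcass replicate 3 (−1.06). In nub1 the shares were 24.1% for apolpp, with a log2 difference of −2.20 (SE 0.31, adjusted p = 4.81e-05 from limma), and 26.4% for Apoltp, with one of −1.79 (SE 0.23), a description.

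Of the storage genes Lsp2 alone could be compared in wt, where the gut held 10.4% of the carcass signal, a log2 difference of −2.32 (SE 0.61). It passed the filter on low signals through the carcass alone, so this value is a description, and it was not called by the methods' t-test and not tested at a signal minimum of 30. The arrays overlapped through the dim wt carcass replicate 3, without which it was −3.16. In nub1 the gut held 4.30% of the carcass signal of Lsp2 (log2 difference −4.09, SE 0.61) and 5.32% of that of Lsp1beta (−3.29, SE 0.49, or −2.62 without nub1 carcass replicate 3), and Lsp1alpha was at least 12.0-fold lower in gut. These values share the nub1 carcass arrays with the known changes and are descriptions.

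By these comparisons 2 of the 6 listed genes tested in wt were called, both lower in gut (apolpp and, described above without a test, Lsp2), beside 39.7% of all 9964 probe sets, 21.9% of them lower. In nub1 6 of 8 were called lower, the storage genes, Yp2, apolpp and Apoltp, beside 38.4% of 9436 probe sets, 22.7% of them lower, and the median log2 difference was −1.99, beside −0.46 over all. The other 2, Yp1 and Yp3, passed on p but were under 2-fold. The storage genes, Apoltp and Yp3 are descriptions in nub1, as stated above. Nothing is therefore read from these shares or from the median.

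**Figure D4:**
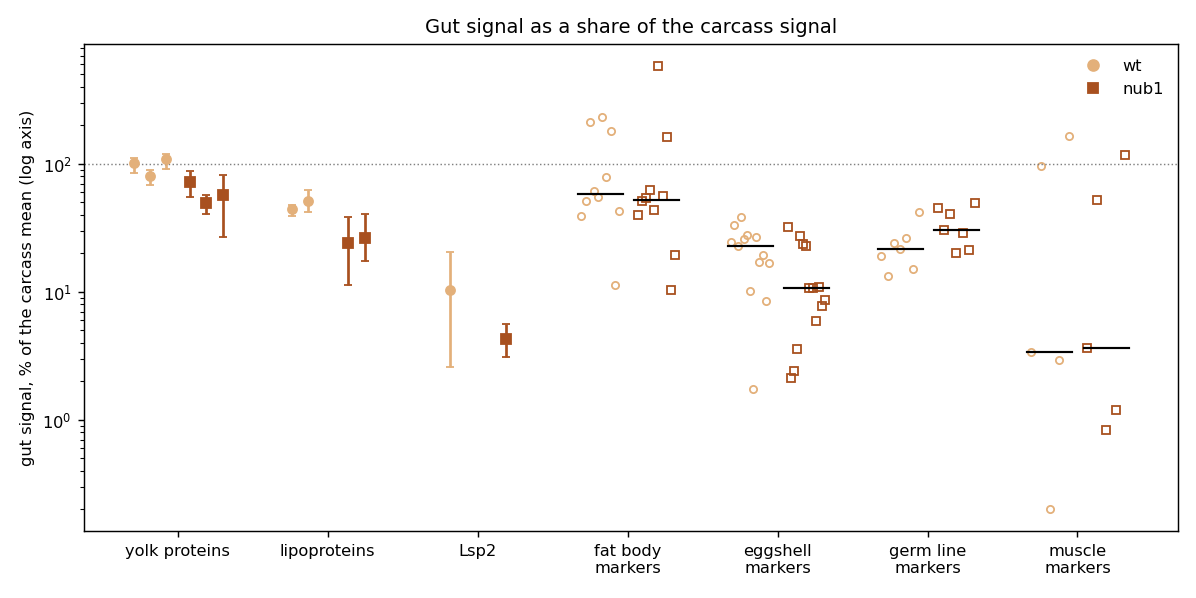
Gut signal in percent of the mean carcass signal of the same genotype (log axis) for Yp1, Yp2 and Yp3, for apolpp and Apoltp and for Lsp2 (filled, left to right in that order within each genotype, bars from the lowest to the highest gut array), and for single genes of 4 marker lists (open, black line at the median). Markers with a carcass array under 10 are left out. The yolk genes sit near 100% in wt, above the eggshell and germ line markers, and lower in nub1.

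The genes for uptake and hormonal control of yolk showed no called change with genotype. Of 17 listed, 13 were tested in each tissue, and limma called 0 in carcass, with 2 at an unadjusted p under 0.05, and 0 in gut, with 7. Over all probe sets 4.71% were called in carcass and 9.28% in gut, and nothing is read from the 0 of 13. At an adjusted p under 0.05 with no fold minimum, 7 of the 13 passed in gut, beside 3429 of all 9782 probe sets. The methods' t-test with the 2-fold minimum called 0 in carcass, and in gut 1 before adjustment and 0 after it. Doublesex, the sex determination factor that binds the enhancer of Yp1 and Yp2, had a log2 fold change of 0.47 for dsx in gut (adjusted p = 0.0192 from limma). The signal of yl, the yolk receptor of the oocyte, was 65.1, 57.4 and 97.2 in wt gut and 112, 276 and 108 in nub1 gut, without overlap.

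For yl the log2 fold change was 0.97 (SE 0.28, adjusted p = 0.0184 in limma), under 2-fold. Among 6 germ line markers tested in gut, limma called 0, with 1 at an unadjusted p under 0.05, and the methods' t-test called 1 before adjustment and 0 after it. That 1 was bcd, an oocyte transcript like yl, with a log2 fold change of 0.98 (adjusted p = 5.60e-04 from limma), and otu had 0.82, nanos 0.67 and the other 3 between −0.30 and −0.20. Whether oocyte RNA in the gut samples had a part in the value of yl was not tested. EcR, the ecdysone receptor, had −0.63 (adjusted p = 0.0156), its partner usp 0.34 (adjusted p = 0.0149) and jhamt, which makes juvenile hormone, 0.65 (adjusted p = 0.0166), all from limma and under 2-fold. Between the tissues of wt flies, yl was lower in gut by a log2 difference of −3.37, br, an ecdysone-response factor, by −1.49 and usp by −1.31, while jhamt was higher by 1.86, and 1 further gene of the 15 tested was called lower.

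Genes of lipoprotein assembly, lipoprotein receptors and lipocalins changed singly. Of 7 tested, GLaz, a lipocalin, was the one called in carcass, where its signal was 52.7, 47.8 and 41.1 in wt and 144, 154 and 132 in nub1 (log2 fold change 1.42, SE 0.10, adjusted p = 1.68e-06 from limma). In gut NLaz rose from 893, 851 and 792 to 2193, 1609 and 2259 (log2 fold change 1.23, SE 0.14, adjusted p = 3.46e-05 from limma). Both lipocalins were thus called in 1 tissue each, with differences between the tissues of −1.19 for GLaz (adjusted p = 2.55e-04) and 1.29 for NLaz (adjusted p = 0.00129, limma).

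LpR2, a lipophorin receptor, had a signal of 127, 85.4 and 132 in wt gut and of 35.7, 64.7 and 41.2 in nub1 gut. It fell by 1.14 on the log2 scale (SE 0.24, adjusted p = 0.00301 from limma). In carcass it was lower by nearly as much, −0.97 (adjusted p = 0.0152 from limma), under 2-fold, and the difference between the tissues was −0.17 (adjusted p = 0.789). Mtp, which loads lipid onto apolpp, had −0.55 in gut (adjusted p = 0.0123) and −0.25 in carcass (adjusted p = 0.323, limma).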

How the data were processed

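RNA of 12 samples was measured on Affymetrix Drosophila Genome 2.0 arrays. The authors deposited linear MAS5 intensity values, for which Affymetrix Expression Console is named in their processing notes without a version. No detection calls were used, and precision is limited by the 3 arrays per group. Of 18952 probe sets, 183 controls were left out. Names came from the platform annotation, updated through RefSeq, in which 7 listed genes had a probe set, and for Lsp1alpha and Lsp1beta from the gene symbol column of a supplementary table. The fold changes given there are not printed, but with other earlier results they set which genes are described without a test.

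Signals were fitted as log2(signal + 10) with limma 3.58.1 in R 4.3.3, with 4 groups in 1 model, a variance trend on intensity and 8 residual degrees of freedom. An SE, interval or p in 1 tissue therefore also reflects the spread in the other. Probe sets with a signal of at least 10 on all 3 arrays of a compared group were tested (of any group for the difference, gut minus carcass). A call needed a Benjamini-Hochberg adjusted p under 0.05 over all probe sets tested and a fold of at least 2. Where a group was under 10 on all its arrays, the fold is a lower bound, the mean log2 signal of the bright group against a signal of 10. With 3 arrays against 3, an exact permutation test of a single gene cannot go below p = 0.1, so none was run.

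All listed genes are named, and from each pathway or marker list up to 4 called genes per comparison. Pathway genes that were not called are named for their roles, and were picked after their values were seen. The listed genes and all lists were chosen with earlier results of these data known. The methods name two-group t-tests, and the methods' t-test was run on linear signals, 2-sided with equal variances. On simulated arrays, the fit found 98% (carcass) and 99% (gut) of the probe sets raised by log2 2, and 95.8% and 95% of those changed by log2 −1.5, with 3 and 1 false calls. Pseudocount, filter, normalization, variance model, replicate block, test and the arrays included were varied. Python 3.11.15 and pandas 2.3.3 handled the tables. Sequences of these genes are not shown.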

Additional observations from a re-analysis of the deposited data

Results flagged for a closer look

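The nub1 effect on Yp2 differed between the tissues by the p of a direct test of the difference, though under the 2-fold minimum. It was −0.69 on the log2 scale (gut minus carcass, SE 0.18, adjusted p = 0.0279 from limma), with all 3 nub1 gut pools below all 3 wt gut pools and the carcass pools overlapping. With each array left out in turn it stayed between −0.80 and −0.55, with adjusted p from 0.0148 to 0.0728, the weakest without nub1 gut replicate 1. The list was chosen with these signals known. Deviations of Yp2 and Yp3 from their group means went together over the 12 arrays (r = 0.890), so this value is not independent of the known change in Yp3. In carcass Yp2 ranked between 10 and 24 of 18769 probe sets, where a linear response was not tested.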

How the results depend on the processing

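The number of listed genes called was recomputed under each alternative, and 108 of 122 values stayed within 1.5 times of the reported ones. In carcass, 3 were called, 1 by the methods' t-test before adjustment and 0 after it. In gut, 2 were called, against 1 with the compared groups alone in the fit, 0 by the adjusted t-test, 4 with no fold minimum and 1 without the arrays with ejaculatory duct transcripts (Yp3 dropped out), which leaves 1 nub1 gut array, assumed to vary like the other groups. Leaving out each array in turn gave 1 to 3. For the difference between the tissues, 2 were called, 4 without the duct arrays and 1 to 5 with each array left out (1 without wt carcass replicate 3, where Lsp1beta dropped out, 5 without nub1 gut replicate 3). Between wt gut and wt carcass, 2 were called, against 1 at a signal of at least 30, 1 by the t-test either way and 4 with no fold minimum. A fit with the replicate number as a block (replicate block) changed no number of listed genes called (3, 2, 2, 2 and 6). Same-numbered arrays did not deviate together (4 of 18 pairs with r over 0.1, range −0.35 to 0.33). These correlations cannot tell whether gut and carcass arrays of the same number came from the same flies. The sign turned under quantile normalization for Yp2 in carcass (0.0022) and, for wt gut over wt carcass, for Yp1 (−0.45) and Yp3 (−0.36). That of Yp1 was −0.068 to 0.12 with each array left out. The causes were not tested.

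Counts over all probe sets moved by over 1.5 times with a pseudocount of 32 (carcass 230 against 417, gut 549 against 908, difference 403 against 669), with no fold minimum (1384, 3429 and 1424 in the same order, 8204 against 3959 and 7816 against 3621 between the tissues of wt and nub1), with the adjusted t-test in gut (539) and without the duct arrays (difference 1070, nub1 gut over carcass 2140). Quantile normalization called Yp1 (−1.17) and Yp3 (−1.52) lower in nub1 gut than in nub1 carcass as well, and moved the median over all probe sets there from −0.46 to −0.34. Each listed gene had 1 probe set, so no choice among probe sets was made, and signals near 10 limit what can be said of Lsp1alpha, Lsp1beta and Fbp1.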

Other observations

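The genes whose profile over the 12 arrays was most like the mean of the tested genes of each kind were listed by Pearson's r, as a description. The arrays fall into 4 groups, so r mostly reflects the group means. For the yolk genes these were CG7791, 18w, CG4716, Ip259 and CG9175 (r from 0.942 to 0.927), for the lipoprotein genes teq, fon, dgo, CG2736 and CG1910 (r from 0.977 to 0.967), and for the serum storage genes Cdc14, sbb, Roc1a, Obp19d and TrpRS (r from 0.968 to 0.929). Of these, fon is one of the fat body markers and was lower in nub1 gut, with a log2 fold change of −1.03.

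Between nub1 gut and nub1 carcass, genes around lipoprotein assembly moved both ways. Mtp was lower in gut by a log2 difference of −1.11 and cv-d, a lipoprotein related to vitellogenins, by −1.15, like apolpp and Apoltp, whereas the receptor LpR1 was higher by 1.17 and NLaz by 2.49 (adjusted p from 1.79e-08 to 2.83e-05, limma).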
